A study of Homo sapiens with 6 samples.

Results

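To describe the zinc finger genes that A375 melanoma cells transcribe, the genes whose symbol is ZNF followed only by digits were taken from the RNA-seq table, and those with a mean level of at least 4 log2 CPM, a gene's reads scaled to the size of the library on a log2 scale, were kept. This gave 199 genes of 474 with such a symbol, or 42.0%, in a table of 28395 genes. The members were chosen by this measured level, so their levels are a description and carry no test. RNA was sequenced from 6 libraries of A375, an established human melanoma cell line labelled as wild type. In 3 of them the cells had received 0.01% olive oil (OLO), which served as the control, and in 3 they had received 0.01% ozonated olive oil (OZO), in both cases for 6 h. Both groups shared the same culture medium with serum. The level of a gene is the authors' mean over all 6 libraries, OLO and OZO together, so it has no spread of its own here, and the groups were not compared because no values per library were analysed here.

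C2H2 zinc finger proteins form the largest class of human transcription factors. In each finger a pair of cysteines and a pair of histidines hold a zinc ion, and a short helix between them reads a few bases of DNA, so that a row of fingers reads a longer site. Many of these proteins carry a KRAB domain ahead of the fingers, which recruits the scaffold protein TRIM28 and, through it, enzymes that deposit repressive histone marks, often on retroelements. Others carry a SCAN domain, through which the proteins pair, and a smaller number use zinc fingers to bind RNA, ribosomes or other proteins. KRAB zinc finger genes arose by repeated local duplication, and many of them lie in clusters on chromosome 19.

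The coding repeat that gives the family its name is shown for members chosen as the highest by level per kb, as long arrays, and as a near-identical pair. Each line is 84 bases of the canonical GENCODE 44 transcript, 5′ to 3′, starting at the first cysteine codon of a finger and running through the linker to the next finger. Capitals mark the codons of the cysteines and histidines that hold zinc.
ZNF146 finger 4: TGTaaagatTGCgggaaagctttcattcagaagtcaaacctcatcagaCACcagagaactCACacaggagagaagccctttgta
ZNF146 finger 5: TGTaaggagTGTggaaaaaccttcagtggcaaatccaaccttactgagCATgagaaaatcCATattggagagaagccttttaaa
ZNF91 finger 10: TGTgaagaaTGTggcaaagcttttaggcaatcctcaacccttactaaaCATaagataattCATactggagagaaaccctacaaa
ZNF208 finger 10: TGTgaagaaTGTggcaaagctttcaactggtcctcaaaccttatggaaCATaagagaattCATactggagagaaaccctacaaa
ZNF721 finger 10: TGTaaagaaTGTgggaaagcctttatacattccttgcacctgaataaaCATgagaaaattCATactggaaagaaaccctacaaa
ZNF417 finger 8: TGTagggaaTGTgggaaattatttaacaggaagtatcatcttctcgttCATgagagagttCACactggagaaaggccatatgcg
ZNF587 finger 9: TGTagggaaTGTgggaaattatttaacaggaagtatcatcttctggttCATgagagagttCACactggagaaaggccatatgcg
All of these repeats lie within the last exon of the transcript. In hg38 the ZNF146 fingers 4 and 5 adjoin each other on the plus strand, at chr19:36236744-36236827 and chr19:36236828-36236911. Finger 10 of ZNF91 lies at chr19:23361422-23361505 and finger 10 of ZNF208 at chr19:21973456-21973539, both on the minus strand, and finger 10 of ZNF721 at chr4:443045-443128, also on the minus strand. Finger 8 of ZNF417 lies at chr19:57908883-57908966 on the minus strand and finger 9 of ZNF587 at chr19:57859724-57859807 on the plus strand.

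The repeats differed within a protein as well as between proteins. The pairs given here were picked, so they do not rank likeness within a protein against likeness between proteins. Fingers 4 and 5 of ZNF146 were identical at 55 of 84 bases (65.5%), and its fingers 3 and 4 at 61 (72.6%). Between proteins, finger 10 of ZNF91 and finger 8 of ZNF417 were identical at 46 of 84 bases (54.8%). Finger 10 of ZNF91 and finger 10 of ZNF208, a pair of genes in one cluster on chromosome 19, were identical at 73 of 84 bases (86.9%). Finger 10 of ZNF91 and finger 10 of ZNF721, a gene on chromosome 4, were identical at 69 of 84 bases (82.1%). The printed fingers of ZNF417 and ZNF587, genes of one cluster at the end of chromosome 19, were identical at 83 of 84 bases (98.8%). Such likeness bears on the counting of reads where it runs unbroken over the length of a read. The transcripts of ZNF91, ZNF721 and ZNF146 shared no stretch of that length with another gene, but those of ZNF417 and ZNF587 did. Of the 4536 stretches of 150 bases, the read length, in the ZNF417 transcript, 656 occurred letter for letter in transcripts of ZNF587, so the levels of ZNF417 (4.99 log2 CPM) and ZNF587 (6.11 log2 CPM) are uncertain to the extent that such reads were split or dropped.

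The low values of the table gave the depth behind these levels. From them the geometric mean of the 6 library sizes was 18409902 counted fragments, at which the threshold of 4 log2 CPM, or 16 CPM, equals about 294 reads per library. The sizes of the libraries one by one were not recovered. Of the ZNF genes, 4 of 474 had no read in any library, 32 had a read but a mean under 10 reads, and 239 lay between 10 reads and the threshold. Of all 28395 genes, 27.4% reached the threshold, as did 39.9% of the 19171 protein-coding genes, close to the 42.0% of the ZNF genes. The labelled cell type was checked against its markers. SOX10 (5.64 log2 CPM) and MITF (4.76 log2 CPM), transcription factors of the melanocyte lineage, were at the threshold or above, but the other 6 of 8 melanocyte markers were below it, and the pigment genes PMEL, DCT and TYR had under 10 reads, with no read at all for TYR. Of 4 markers of less differentiated melanoma states, 3 reached the threshold, AXL at 8.06, NGFR at 5.24 and EGFR at 4.82 log2 CPM, and SOX9 did not, at 2.22. Of the markers of other cell types, 1 of 4 for keratinocytes (KRT10), 0 of 4 for fibroblasts, 1 of 3 for leukocytes (CD68) and 0 of 2 for endothelium reached the threshold.

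**Figure D1:**
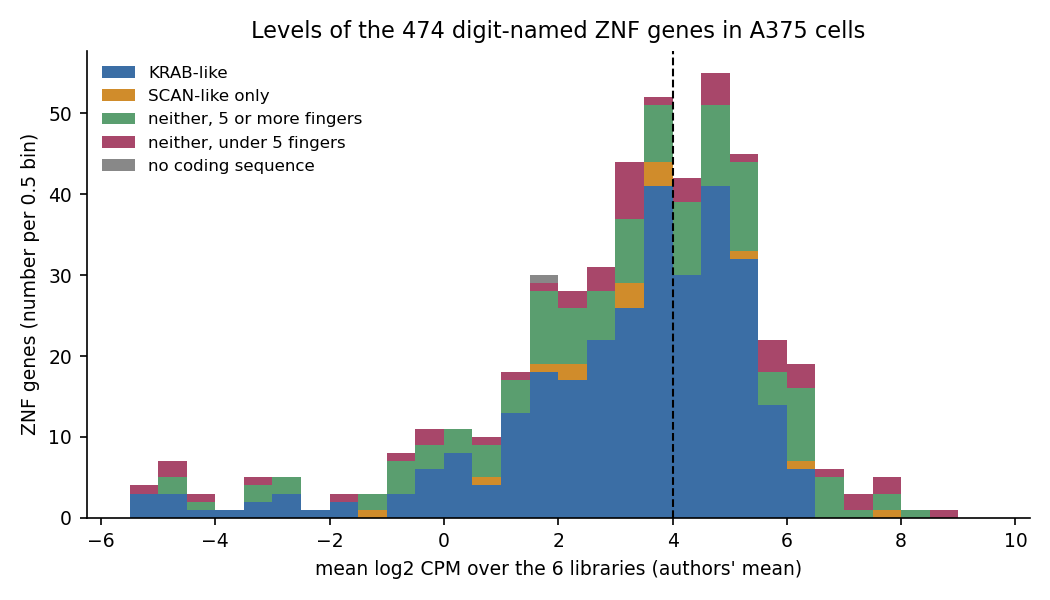
Number of digit-named ZNF genes in bins of 0.5 log2 CPM (x axis, authors' mean over 6 libraries), coloured by protein class, with the threshold of 4 log2 CPM as a dashed line. The distribution has no gap at the threshold: 12 members lie within 0.1 above it and 12 genes within 0.1 below it.

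Members had modest read numbers. Their level ran from 4.004 to 8.73 log2 CPM with a median of 5.03 log2 CPM, or about 600 reads per library. Between 4 and 5 log2 CPM lay 97 members (48.7%), against 24.8% of all genes at the threshold. Only 2 members (1.01%) reached 8 log2 CPM, against 732 genes at the threshold (9.41%). A CPM value grows with the length of a transcript, so levels are compared between genes per kilobase (kb) of the canonical transcript, as the log2 CPM minus the log2 of the length in kb. On that scale the members had a median of 3.04 log2 CPM per kb, with quartiles of 2.32 and 3.56, whereas the 7732 genes at the threshold with a known length had a median of 4.10, with quartiles of 3.14 and 5.19. In bulk RNA a lower level cannot be told apart from expression in fewer of the cells. Which transcripts of a gene the cells used was not examined. Where these are shorter or longer than the canonical transcript, the level per kb and its rank would change.

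The line at 4 log2 CPM passes between genes that the depth cannot separate. The lowest members were ZNF787 and ZNF10, both at 4.06 log2 CPM, ZNF248 at 4.05, ZNF222 at 4.01 and ZNF329 at 4.004, the last with about 295 reads. Just outside were ZNF273 at 3.9997 log2 CPM, ZNF568 at 3.999, ZNF629 at 3.99, ZNF641 at 3.98 and ZNF823 at 3.96, the last with about 287 reads.

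The highest member by read number was ZNF207 (BuGZ), a spindle and kinetochore protein that binds BUB3. It stood at 8.73 log2 CPM, or about 7812 reads, but its canonical transcript is 13.74 kb long and its level per kb was 4.95, the 8th of the members. ZNF146, a protein of 292 residues made up almost wholly of fingers, was second at 8.01 log2 CPM and first per kb at 6.27. ZNF664, a similarly short protein with 9 fingers in 261 residues, followed per kb at 5.83 and stood at 7.94 log2 CPM. Both of these transcripts are mostly not coding.

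Among the rest of the 15 highest members were several with known partners or targets. ZNF106, an RNA-binding protein, stood at 7.96 log2 CPM and 4.58 per kb. ZNF638 (NP220), which binds cytidine-rich DNA and silences unintegrated retroviral DNA through the HUSH complex, stood at 7.82 log2 CPM and 5.12 per kb. ZNF24, a SCAN domain factor, stood at 7.71 log2 CPM and 5.07 per kb. ZNF148 (ZBP-89), a factor of GC-rich promoters, stood at 7.03 log2 CPM and 3.78 per kb. ZNF644, a partner of the histone methyltransferases G9a and GLP, stood at 6.78 log2 CPM and 4.31 per kb, and ZNF281, a factor linked to stem cell and epithelial-mesenchymal states, at 6.58 log2 CPM and 4.30 per kb. The others were ZNF770 (7.73 log2 CPM), ZNF800 (7.40), ZNF609 (7.11), ZNF655 (6.95), ZNF292 (6.67) and ZNF721 (6.55). Of the 15 highest members by log2 CPM, 9 were also among the 15 highest per kb. Those that entered the per-kb list were ZNF622, ZNF330, ZNF131, ZNF384, ZNF410 and ZNF300, with 4.39 to 5.27 log2 CPM per kb.

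**Figure D2:**
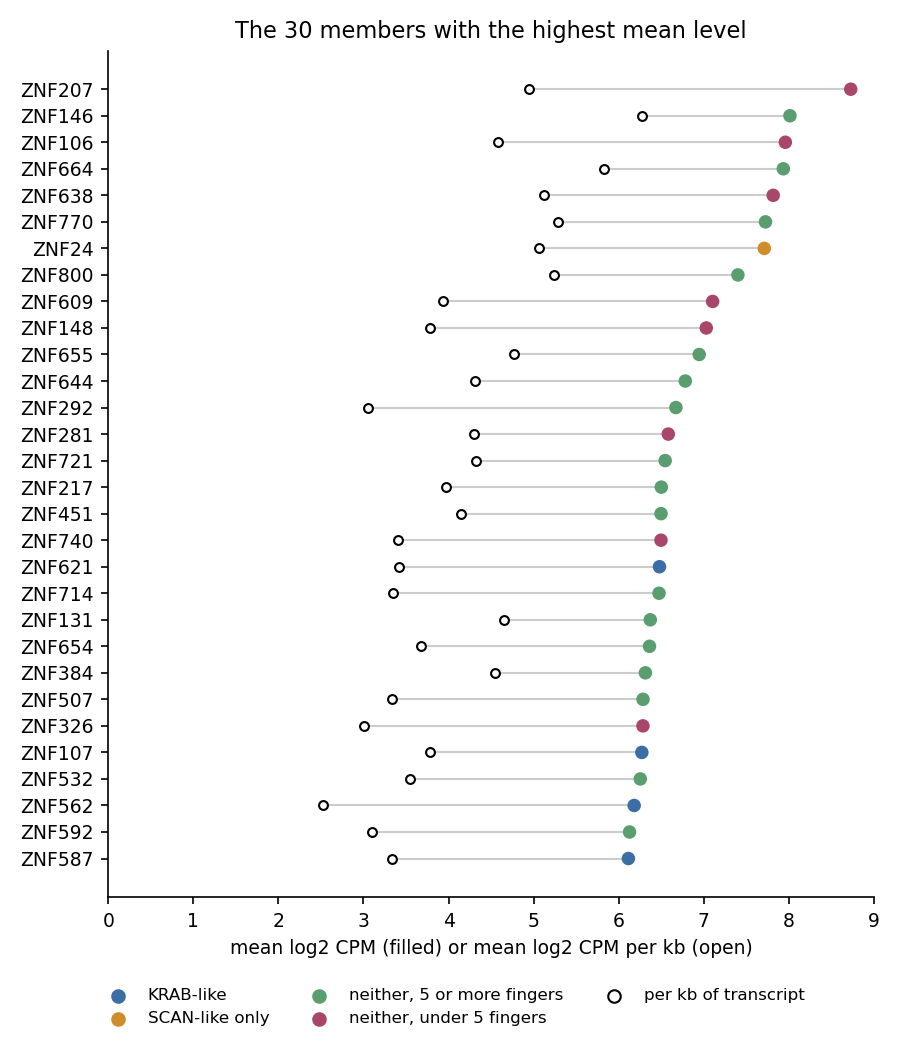
The 30 members with the highest mean level, with log2 CPM as filled points coloured by protein class and log2 CPM per kb of transcript as open points, joined by a line. ZNF207 is highest in log2 CPM (8.73) and ZNF146 per kb (6.27), and the first member with a KRAB-like motif, ZNF621, is the 19th in log2 CPM (6.48).

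Protein features were then read from the translated canonical transcripts of all 199 members and of 274 of the 275 other digit-named ZNF genes. A finger was counted as a pair of cysteines 2 to 4 residues apart and a pair of histidines 3 to 5 residues apart, with 12 residues between the pairs. Member proteins held 2273 fingers, with a median of 11 and quartiles of 7.5 and 14, and the others held 2875, with a median of 10.5 and quartiles of 7 and 14. At least 10 fingers were found in 118 members (59.3%) and in 163 others (59.5%), and fewer than 5 in 27 members and 33 others. Fingers that adjoin with the usual spacing were joined by the conserved linker of the family in 996 of 1733 pairs in members (57.5%) and in 1360 of 2325 in others (58.5%). The number of fingers thus hardly differed between ZNF genes on the 2 sides of the threshold. Transcripts were longer in members, with a median of 4.56 kb against 3.29 kb, and since longer transcripts collect more reads this difference is partly built into a threshold on CPM.

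The members with the most fingers were ZNF208 and ZNF142, with 36 each, and ZNF462, with 33. These fingers need not form one unbroken row. Pairs that adjoin with the usual spacing numbered 33 in ZNF208, 17 in ZNF142 and 4 in ZNF462. These genes all had low levels per kb, at 1.86 for ZNF208, 1.23 for ZNF142 and 1.62 for ZNF462. Their read numbers lay near the median of the members, at 5.04, 4.73 and 4.99 log2 CPM. Of the ZNF208 transcript, 25.6% of the 150-base stretches also occur in another annotated gene. At the other end ZNF330, a cysteine-rich nucleolar protein, held no motif of this spacing and stood at 5.68 log2 CPM and 4.76 per kb. ZNF326 and ZNF395 held 1 motif each, at 6.29 and 4.75 log2 CPM, as did ZNF598, ZNF609, ZNF706 and ZNF830. Across the 199 members, Spearman's rho between the number of fingers and the level was −0.20 in log2 CPM and −0.36 per kb. Over all 473 ZNF genes with a protein it was 0.04 in log2 CPM and −0.04 per kb. Values as negative as −0.20 and −0.36 were thus found only after the selection on level. These genes share the libraries and, in part, their ancestry, and the values are a description across genes.

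A KRAB-like motif ahead of the fingers was found in 123 members, 61.8% of them, by a pattern that accepts either part of the domain's conserved box. A stricter pattern, for a narrower form of the earlier part alone, found 75 members, or 37.7%. The classes below use the first pattern. Matches were not checked against annotated domains, so a class without a motif may hold proteins that carry the domain. By class, 123 of 297 KRAB-like genes were members, or 41.4% (95% exact binomial interval 35.8 to 47.2). This interval and those below treat genes as independent draws, although every such gene was counted and many arose by duplication. They measure no spread between libraries. Of the 116 genes with neither a KRAB-like nor a SCAN-like motif and at least 5 fingers, 52 were members (44.8%, interval 35.6 to 54.3). Of the 46 with neither motif and fewer than 5 fingers, 21 were members (45.7%, interval 30.9 to 61.0), and of the 14 with a SCAN-like motif alone, 3 were (21.4%, interval 4.66 to 50.8). Membership is fixed by the level, so these shares are a description, and no difference between the classes was tested.

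The order of the classes depended on whether the genes below the threshold were kept. KRAB-like members had a median of 2.76 log2 CPM per kb and 4.93 log2 CPM, and members without the motif a median of 3.35 per kb and 5.44 log2 CPM. By the stricter pattern the medians of members with and without the motif were 4.98 and 5.13 log2 CPM, and 2.99 and 3.05 per kb. Over all ZNF genes with a protein, the medians with and without the first pattern were 3.72 and 3.42 log2 CPM, and 1.63 and 1.54 per kb, the opposite order to that within the members. The highest KRAB-like member per kb was ZNF300 at 4.39, the 15th of all members. Members with neither motif and fewer than 5 fingers had a median of 3.70 log2 CPM per kb, and those with neither motif and at least 5 fingers a median of 3.12. Over all genes of these classes, below the threshold or above it, the medians were 2.44 and 1.40 per kb. At 6 log2 CPM or more there were 6 of 123 KRAB-like members, 18 of 52 with neither motif and at least 5 fingers, and 9 of 21 with neither motif and fewer than 5 fingers. The SCAN-like pattern matched 9 members, 6 of which also matched the KRAB-like pattern, and 11 of the other ZNF genes, 0 of which did. Since a pattern can miss a domain, these counts do not show that proteins with both domains are confined to the members.

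**Figure D3:**
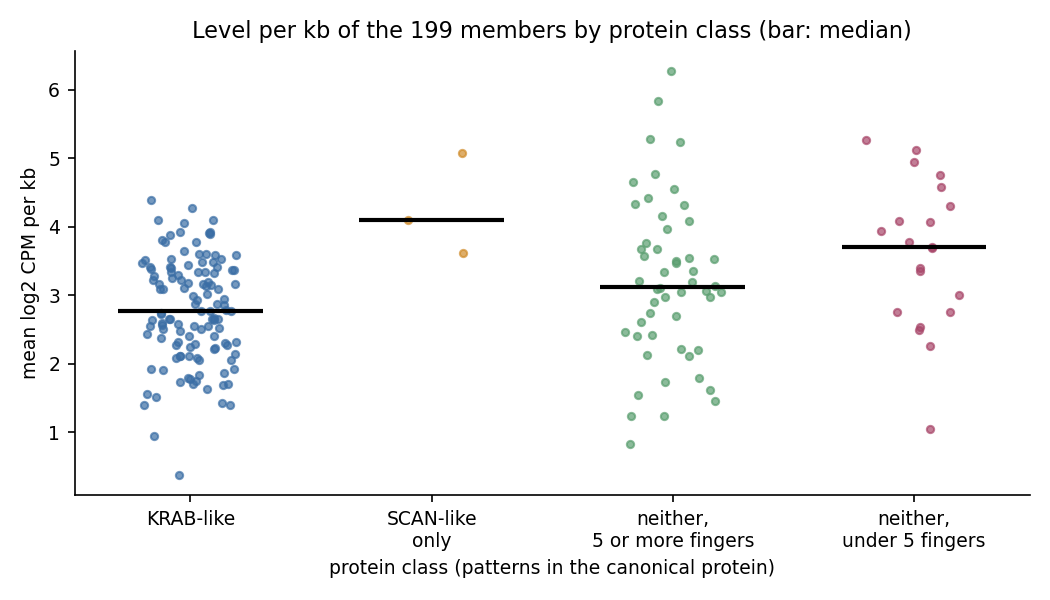
Level of each of the 199 members in log2 CPM per kb of canonical transcript (y axis), by protein class, with a bar at the median of each class. Among these genes, which were kept by their level, the KRAB-like class has a median of 2.76 and a maximum of 4.39, and the other classes reach 5.07 to 6.27, whereas over all ZNF genes the KRAB-like median (1.63) is not the lowest of the classes.

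The ZNF genes with known roles were then taken as lists. Of the promoter and chromatin factors, 14 of 15 were found in the table and 12 were members, with a median over those found of 3.61 log2 CPM per kb. The highest per kb were ZNF384 (4.55), a factor that also occurs in leukaemia fusions, and ZNF410 (4.41), an activator whose chief target is the chromatin remodeller gene CHD4. Of the ZNF410 transcript, 76.1% of the 150-base stretches also occur in another annotated gene, so its level is uncertain to the extent that such reads were split or dropped. ZNF217, a partner of the CtBP co-repressor, stood at 6.50 log2 CPM and 3.97 per kb. ZNF592, ZNF687 and ZNF532, which associate with one another and with ZMYND8, stood at 6.13, 4.87 and 6.26 log2 CPM. ZNF263, another factor of this list, stood at 5.39 log2 CPM, with 47.5% of its stretches shared. Below the threshold were ZNF76 at 2.79 and ZNF827 at 3.69 log2 CPM.

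Of the 7 factors of RNA, ribosomes and the spindle, 6 were members, and the list had a median of 4.58 log2 CPM per kb. Besides ZNF207, ZNF106 and ZNF638, these were ZNF622, which acts in the maturation of the large ribosomal subunit (6.04 log2 CPM, 5.27 per kb), ZNF598, the ubiquitin ligase that marks collided ribosomes (5.83 log2 CPM, 4.07 per kb), and ZNF346, which binds double-stranded RNA (4.86 log2 CPM, 2.75 per kb). ZNF593, a factor of ribosome assembly, was below the threshold at 2.25 log2 CPM, although its short transcript gave it 2.90 per kb, above ZNF346. ZNF451, a SUMO ligase, stood at 6.50 log2 CPM and 4.15 per kb. Of the metabolic and stress factors, ZNF24 is given above, ZNF395 stood at 4.75 log2 CPM with 40.5% of its stretches shared with transcripts of FBXO16, and ZNF746 (PARIS), a repressor of the PGC-1α gene, at 4.21 log2 CPM.

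The 4 repressors of imprinted loci and retroelements were all members, with a median of 2.45 log2 CPM per kb. ZNF445, which protects imprinted methylation, stood at 5.99 log2 CPM but, with a transcript of 18.3 kb, at 1.79 per kb. ZNF91, which represses SVA elements, stood at 5.91 log2 CPM and 3.48 per kb. ZNF93, which represses LINE-1 elements, stood at 4.46 log2 CPM and 2.99 per kb. ZNF10 (KOX1), from which the KRAB domain used in CRISPR interference was taken, stood at 4.06 log2 CPM and 1.92 per kb. ZNF57, which is not the imprinting factor ZFP57, is not counted here and was below the threshold at 1.79 log2 CPM.

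Transcripts of the proteins through which KRAB factors act stood above those of the factors themselves in the median. All 15 genes of the co-repressor machinery reported here reached the threshold, against 39.9% of all protein-coding genes. The median of the 15 was 4.65 log2 CPM per kb, against 2.76 for the KRAB-like members. The 7732 genes at the threshold with a known length had a median of 4.10, with quartiles of 3.14 and 5.19. The machinery median thus lay within the usual range of such genes, and the KRAB-like median lay below it. TRIM28, the scaffold that binds KRAB, stood at 8.93 log2 CPM and 7.17 per kb, above each of the 199 members on both scales. The heterochromatin protein genes CBX3 and CBX1 stood at 8.02 and 6.40 per kb, and CBX5 at 3.70. SETDB1, the histone methyltransferase of this pathway, stood at 3.95 per kb, and its partner ATF7IP at 4.13. The HUSH genes TASOR, MPHOSPH8 and PPHLN1 stood at 4.65, 4.53 and 6.00 per kb, and MORC2 was lowest of the list at 2.52 per kb. The remodeller CHD4 stood at 6.49 per kb and its relative CHD3 at 3.37, the deacetylases HDAC1 and HDAC2 at 6.63 and 4.46, and SUMO2 at 6.10.

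Position was not used to choose the members. Chromosome 19 held 93 members, 46.7% of them, near the 50.4% of all 474 ZNF genes it holds and above the 5.76% of all genes at the threshold. Of its 239 ZNF genes, 38.9% were members. On chromosome 12, 9 of 11 were members (81.8%), on chromosome 1, 13 of 20 (65.0%), on chromosome 7, 17 of 33 (51.5%), on chromosome 16, 8 of 29 (27.6%), and on chromosome 10, 2 of 12 (16.7%). No test was made between chromosomes, and most counts are small.

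**Figure D4:**
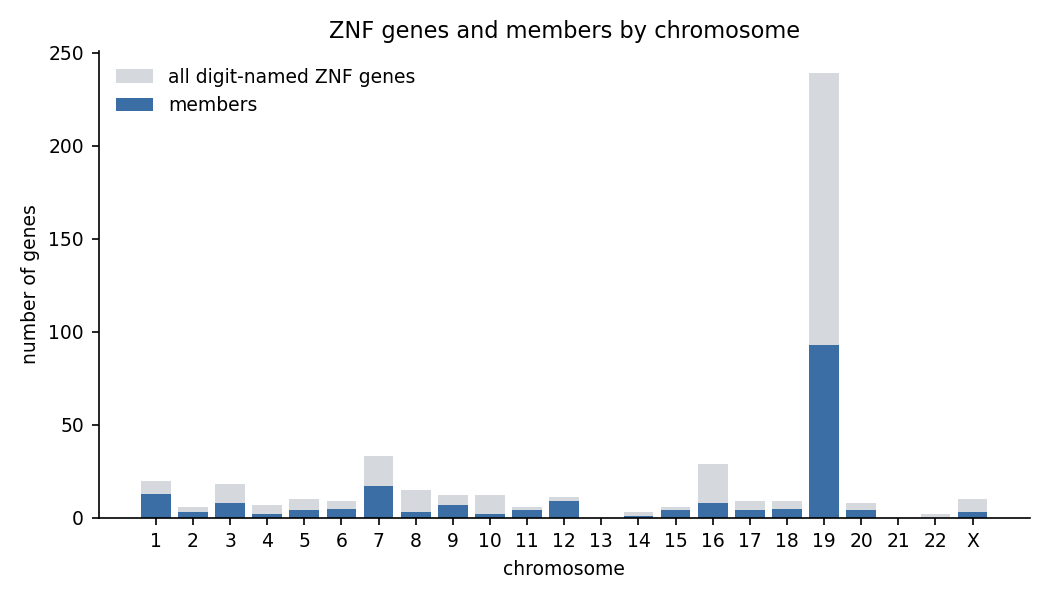
Number of digit-named ZNF genes (grey bars) and of members among them (blue) on each chromosome. Chromosome 19 holds 239 of the 474 genes and 93 of the 199 members, and no other chromosome holds more than 17 members.

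Clusters on chromosome 19 were defined as runs of digit-named ZNF genes with no gap over 1 Mb. The run at chr19:19668153-24129968, toward the centromere, had 22 members among 35 genes (62.9%), ZNF91 and ZNF208 included. The run at chr19:55476617-58489533, at the end of the long arm, held the most ZNF genes, with 19 members among 57 genes (33.3%), ZNF417 and ZNF587 included. The run at chr19:51571283-53580269 had 15 of 39, that at chr19:36182060-37779586, which holds ZNF146, 10 of 25, that at chr19:43530835-45076478 9 of 24 and that at chr19:11483429-12633834 8 of 25. The 5 genes at chr19:2819868-2944971 were all below the threshold. Over 223 neighbouring pairs within a run, genes with few reads included, the median absolute difference was 1.39 log2 CPM per kb. Pairs of genes that are not neighbours were not measured. The value thus does not show whether neighbours are more or less alike than other pairs.

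Promoters of 300 bases, from RefSeq on GRCh38.p14 (the assembly of hg38), were matched to 180 members, 221 other ZNF genes and 6498 of all genes at the threshold. The median ratio of observed to expected CpG was 0.798 in members, 0.789 in the others and 0.867 in all genes at the threshold. In all, 8 motifs were searched on both strands, and no motif's letters contain those of another. CCGGAAG, the core site of ETS factors, was found in 46.7% of member promoters, 35.7% of those of the other ZNF genes, 23.2% of those of all genes at the threshold and 13.3% of all 18304 promoters. CCAAT was found in 48.3%, 48.4%, 38.1% and 36.2% of the same groups. GGGCGG, the GC box bound by SP factors, was found in 63.9%, 65.6%, 72.1% and 55.0%, and GCGCNTGCG, the site of NRF1, in 13.3%, 17.2%, 17.7% and 10.3%. TGACGTCA (CRE) was found in 5.56%, 2.71%, 3.69% and 2.45%, TATAAA, the core promoter element, in 3.89%, 2.71%, 5.02% and 9.92%, and GATGGCGGC (YY1) in 2.78%, 0.905%, 4.0% and 2.01%. A match is a run of letters and does not show that a factor binds there.

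**Figure D5:**
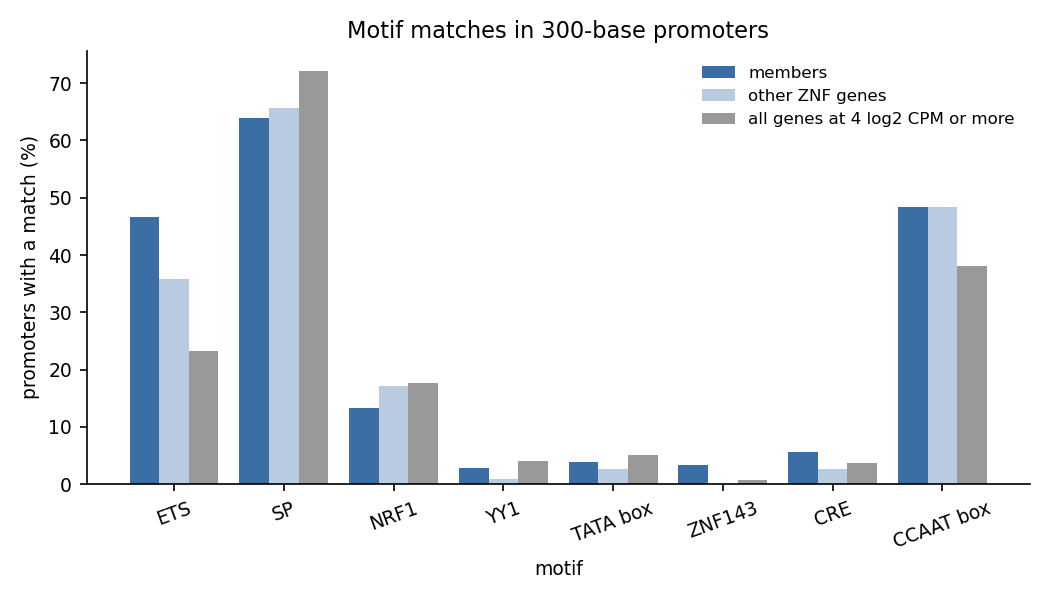
Share of 300-base promoters (percent, y axis) that hold each of 8 motifs on either strand, for members, other digit-named ZNF genes and all genes at 4 log2 CPM or more. CCGGAAG (ETS) is found in 46.7% of member promoters and 23.2% of promoters of all genes at the threshold, while GGGCGG (SP) is found in 63.9% and 72.1%.

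The letters ACTACAATT, part of the site bound by ZNF143 and its relative ZNF76, were found in 6 of 180 member promoters (3.33%), 0 of 221 promoters of the other ZNF genes, 0.785% of those of all genes at the threshold and 0.421% of all promoters. ZNF143 was itself a member, at 5.03 log2 CPM and 3.49 per kb. The windows are shown because each is a promoter of one zinc finger gene that holds letters read by another. Each line gives 29 bases, 5′ to 3′ on the strand where the motif reads forward, with the motif in capitals.
ZNF451: gcggacccgaACTACAATTcccagcatcc
ZNF317: aaacttcaaaACTACAATTcccagcatcc
ZNF121: ccgggaagaaACTACAATTtctgtgtttg
ZNF140: gcctcaagaaACTACAATTcccagaaacc
ZNF180: gagagccagaACTACAATTcccagaagcc
ZNF277: gaggccaagaACTACAATTcccagcgtgc
On GRCh38.p14 the windows are ZNF451 chr6:57089985-57090013 (+), ZNF317 chr19:9140307-9140335 (+), ZNF121 chr19:9584621-9584649 (-), ZNF140 chr12:133080804-133080832 (-), ZNF180 chr19:44500552-44500580 (+), ZNF277 chr7:112206488-112206516 (-). Their motif centres lie 44 to 193 bases upstream of the start site to which each promoter belongs. For ZNF140 that site lies inside the annotated gene, which begins at chr12:133080425, so its window does too. In 5 of the 6 windows the motif runs on into cccag, the exception being that of ZNF121. The levels of these members were 6.50 log2 CPM for ZNF451, 6.07 for ZNF317, 5.21 for ZNF121, 4.81 for ZNF140, 4.78 for ZNF180 and 4.72 for ZNF277.

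Levels of single members depend on how reads were assigned. In 43 members at least 1 stretch of 150 bases in the canonical transcript also occurs in transcripts of another gene, in 15 members more than 10% of the stretches do, and in 8 more than 25%. The highest share was 95.8% in ZNF23 (4.06 log2 CPM), then 76.1% in ZNF410, 55.8% in ZNF490 and 47.5% in ZNF263. Whether the annotation used for counting held the genes that share these stretches is not stated. Exons of 53 members overlap another gene on the same strand and those of 65 a gene on the opposite strand, and the use of strand in counting is not stated. For 92 members there was neither an overlap nor a shared stretch. Among these, the 55 KRAB-like members had a median of 4.98 log2 CPM and the 37 others one of 5.33.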

How the data were processed

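RNA-seq libraries of A375 cells (3 OLO, 3 OZO) were prepared with a directional kit and sequenced as paired reads of 150 bases. Per the labels and the study's methods, reads were aligned to hg38 with HISAT2 2.1.0, counted with featureCounts 2.1.1 and compared with limma-voom 3.58.1. The normalization and any filter are not given in the sources used here. From the deposited table, only the mean log2 CPM that the authors computed over all 6 libraries was used, with 0.5 added to each count by voom. Its other 5 value columns hold the authors' own comparison of the groups (fold change, moderated t, p-value, adjusted p-value and log-odds) and were not used. No test was therefore run.

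Depth was recovered from the low values. In each library the count plus 0.5 was taken in units of 0.5, and a gene's level implies the product of these terms over the 6 libraries. For 11290 genes with the lowest values, 100% of these products fell on an odd whole number within 0.01. Of these genes, 7012 had no read and met this by construction, so only the rest could have failed. Implied reads are means on voom's log scale. Lengths, coding sequences and exon overlaps came from canonical transcripts of GENCODE 44, gene positions and promoters from RefSeq. Proteins were translated and searched for patterns with Python 3.11.15. The finger count was right for 300 of 300 simulated proteins. These were built with the counted spacing and with no cysteine or histidine outside the fingers. That checks the code only and not the count in real proteins. Named genes are the 15 highest members, the 5 genes on each side of the threshold, the 3 members with the most and with the fewest fingers, and listed genes with known roles. Of the listed genes, 1 of the co-repressor machinery is not reported here. ZNF57 had been listed among the imprinting repressors in error for ZFP57 and was taken out of that list after its value was seen. Other members are named where a count or a sequence rests on them and were chosen after their values were seen. The members and lists were chosen with earlier results of these data known.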

Additional observations from a re-analysis of the deposited data

How the results depend on the processing

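With a threshold of 5 log2 CPM the number of members fell from 199 to 102, and with a threshold of 3 it was 295. Symbols with a final letter raised it to 217. Per kb of the canonical transcript, with the threshold set at 2.33 log2 CPM per kb to keep the same share of genes above it, there were 162 members, 148 of them among the 199. A stricter KRAB pattern lowered the share of KRAB-like members from 61.8% to 37.7% and changed the difference of their median level, with minus without the motif, from -0.51 to -0.15 on the log2 scale, since it leaves KRAB-like proteins in the other group. That difference was -0.59 per kb and -0.35 without members that share or overlap sequence. The share on chromosome 19 (43.1% to 50.2%), the median number of fingers (10 to 11) and the share of members (45.4% of genes with at least 10 reads) moved little. The count per kb and these 3 alternatives for the difference were chosen after seeing the data. Lengths of RefSeq transcripts, another voom offset and the fits of OZO against OLO were not run. No paired analysis was possible because no values per library were analysed here, so no library could be left out either. Depth limits what can be said of genes near the threshold, where a step of 0.1 holds 12 genes on either side.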
